A study of Gallus gallus with 30 samples.

Results

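The 7 subunits of respiratory complex I that chicken mitochondrial DNA encodes (ND1, ND2, ND3, ND4, ND4L, ND5 and ND6) were followed through the growth, selection and ovulation of ovarian follicles. They are the 7 rows, of 23910 genes in the deposited table, whose identifiers the study pairs with these symbols on chromosome MT. The study profiled granulosa cell layers of Luhua hens, a chicken breed, at 31 weeks of age, with 3 biological replicates at each of 10 stages and 30 libraries in all. The prehierarchical class holds SWF (small white follicles), LWF, SYF and LYF (12 libraries), the preovulatory class holds the hierarchical follicles F5, F4, F3, F2 and F1 (15 libraries), and the postovulatory class is POF, the follicle after ovulation (3 libraries). No animal received a treatment, and the stages differ in follicle size and position in the hierarchy. The labels disagree on LWF and SYF for 6 libraries, and the sample descriptions were followed, so that the group called LWF here is titled SYF and the reverse. The labels do not say which libraries came from the same hen.

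Complex I is the entry point of electrons from NADH into the respiratory chain and pumps protons across the inner mitochondrial membrane. Its membrane arm is built around the mitochondrially encoded subunits, while the remaining subunits come from nuclear genes. ND2, ND4 and ND5 are the antiporter-like subunits of the proton-pumping arm, ND1 sits at the quinone-binding junction with the peripheral arm, and ND3, ND4L and ND6 are small membrane subunits at that end. Mitochondrial DNA is transcribed into long polycistronic RNAs that are cut at the intervening tRNAs, so that the level of each mRNA also depends on its processing and decay. ND6 is the one mRNA transcribed from the other strand, and ND4L and ND4 overlap and share a transcript. Granulosa cells make progesterone, and the first step of that synthesis takes place in mitochondria.

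Levels are given in FPKM, fragment counts scaled to a kilobase of transcript and to 1e+06 mapped fragments in the library. This puts genes of unlike length on a common scale. How the counting divided reads between overlapping genes, such as ND4L and ND4, is uncertain, which limits the comparison of their levels. The relative depth of the libraries, read from the steps of the lowest FPKM, ran from 1 to 1.54, and the 13 mitochondrially encoded genes with a symbol held 12.9% to 46.4% of all FPKM of a library. LYF replicate 1 stood apart at 46.4%, against at most 37.4% in the other libraries, and ATP6, a subunit of ATP synthase, was at 18810 FPKM in SWF replicate 1, 14247 FPKM in F1 replicate 1 and 20734 FPKM in POF replicate 3, against 573 to 2369 FPKM elsewhere. Shares of mitochondrial FPKM are therefore given with and without ATP6. The study's sequencing statistics set apart 6 libraries with a higher Q30, the share of bases read with high confidence: replicates 2 and 3 of F1, and replicate 3 of POF, F2, F3 and F4. Identifiers were paired with symbols for 36 genes only, so that neither granulosa markers nor nuclear genes of complex I could be looked up, and the labelled cell type was not checked.

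All 7 genes were among the most abundant transcripts, and ND6 was the lowest of them throughout. ND6 was the lowest of the 7 in 30 of 30 libraries. Its level ran between 504 and 4911 FPKM, with a mean of 1133 FPKM. The means of the other 6 genes over the 30 libraries lay between 3988 FPKM for ND5 and 5603 FPKM for ND4. Among all genes of a library, ND4L ranked between place 6 and place 21, and ND6 between place 17 and place 109. The highest of the 7 was ND4L in 13 libraries, ND1 in 9, ND2 in 4, ND4 in 3 and ND3 in 1.

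ND6 also varied most between libraries, and ND5 least. The coefficient of variation over the 30 libraries was 70.3% for ND6 and 31.2% for ND5. Without LYF replicate 1 it was 35.8% for ND6, 36.0% for ND3 and 20.1% for ND5, so that ND3 and ND6 were then about equally variable. In LYF replicate 1 ND4L reached 17609 FPKM, against 6245 and 6026 FPKM in the other LYF libraries, and ND6 reached 4911 FPKM, against 939.5 and 929 FPKM.

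**Figure D1:**
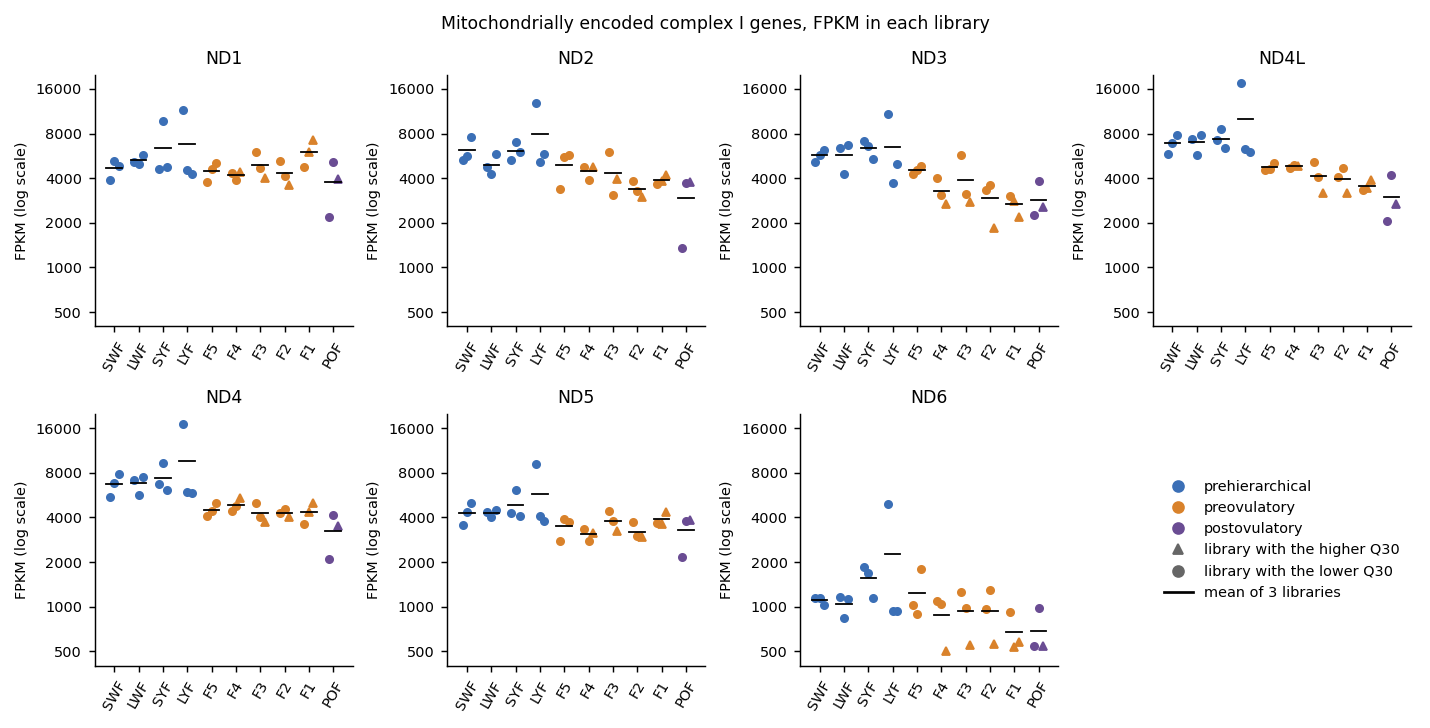
FPKM (log scale) of each of the 7 genes in each of 30 libraries, by stage in order of development, with triangles for libraries of the higher Q30, circles for libraries of the lower Q30 and bars for the mean of 3 libraries. ND3, ND4L and ND4 stood lower in the preovulatory than in the prehierarchical stages, LYF replicate 1 stood above the other LYF libraries in every panel, and within F4 to F1, ND6 was lower in the higher-Q30 libraries than in the lower-Q30 libraries.

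LYF had the highest stage mean of all 7 genes, which rested on LYF replicate 1. POF had the lowest mean for ND1, ND2, ND4L and ND4, F1 for ND3 and ND6, and F4 for ND5. Few neighbours in these orders were separated. For ND3 only SWF and the next stage, F5, did not overlap, and for ND4L and ND4 only SWF and F4 did not. For ND1, ND2, ND5 and ND6 every stage overlapped the next one in the order. The highest stage mean was 3.34 times the lowest for ND4L and 1.81 times for ND1.

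F1, the largest follicle before ovulation, was set against SWF, the smallest, to compare the ends of growth. ND3, ND4L and ND6 fell in F1, ND2 and ND4 were lower without passing the test, and ND5 and ND1 were not separated from SWF. Across the 7 genes 0 were called higher and 3 lower, where a call needs a Benjamini-Hochberg adjusted p under 0.05 in limma and a fold of FPKM + 1 over 1.5. Of all genes tested, 8.4% were called higher and 44.5% lower. With 3 of 7 called, the share of the ND genes called lower was near that background. Their median log2 fold change was -0.65, beside -0.60 over all genes tested.

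ND3 had 3013, 2812 and 2195 FPKM in F1, against 5161, 5709.6 and 6233 FPKM in SWF. The F1 libraries all lay below the SWF libraries, and the log2 fold change was -1.10 (SE 0.28, adjusted p = 0.015, limma). ND4L had 3348, 3427 and 3882 FPKM in F1, against 5838, 6902 and 7838 FPKM in SWF. These libraries did not overlap either, and the log2 fold change was -0.94 (SE 0.29, adjusted p = 0.032, limma). ND6 had 923, 538 and 576 FPKM in F1, against 1150.2, 1144 and 1021 FPKM in SWF. The higher of the F1 values, 923 FPKM, belonged to the F1 library with the lower Q30 and lay nearest to SWF. The log2 fold change of ND6 was -0.74 (SE 0.25, adjusted p = 0.040, limma).

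ND2 and ND4 did not pass the test. ND2 had 3634, 3818 and 4227 FPKM in F1, against 5282, 5670.3 and 7525 FPKM in SWF, without overlap (log2 fold change -0.65, SE 0.30, adjusted p = 0.11, limma). ND4 had 3608, 4345 and 5026 FPKM in F1, against 5453, 6825 and 7857 FPKM in SWF, also without overlap (log2 fold change -0.63, SE 0.32, adjusted p = 0.14, limma). In both genes the groups were apart, but the SE of this fit was too wide for a call. That SE is not the spread of the gene alone, as the fit ties it to genes of like level. With no trend of the spread on level, 5 ND genes were called lower, ND2 and ND4 among them. Of all 15197 genes tested, 6747 were then called lower, beside 6763 with the trend.

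ND1 was the one gene with a higher mean in F1, without passing the test. It had 4753, 5983 and 7269.7 FPKM in F1, against 3866, 5236 and 4842 FPKM in SWF (log2 fold change 0.36, SE 0.33, adjusted p = 0.38, limma). ND5 had 3647, 3607 and 4386 FPKM in F1, against 3537, 4371 and 5026 FPKM in SWF (log2 fold change -0.14, SE 0.29, adjusted p = 0.69, limma). The F1 and SWF libraries overlapped for both genes, and the other 5 of the 7 genes were lower in F1 without overlap. Of all genes tested, 54.4% were lower in F1 without overlap, so that this count is no result about the ND genes.

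The 3 calls depended on the fit and on single libraries. With a term for the higher Q30, which leaves F1 replicate 1 to stand for F1, 0 of the 7 genes were called, beside 41.2% of all genes, and ND6 was at -0.26 (adjusted p = 0.31, limma), ND3 at -0.92 and ND4L at -1.02. Leaving out 1 library gave between 0 and 2 calls, and 0 calls without SWF replicate 2, SWF replicate 3, F1 replicate 2 or F1 replicate 3, while between 6739 and 7930 of all genes were called, beside 8040 with all 6 libraries. Scaling each library to its upper quartile moved the median of all genes by 0.60. Under it ND1 was called higher (log2 fold change 1.09, adjusted p = 0.048, limma) and the other 6 genes were not called. The calls over all genes then split into 2523 higher and 3715 lower, beside 1277 and 6763 without that scaling.

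**Figure D2:**
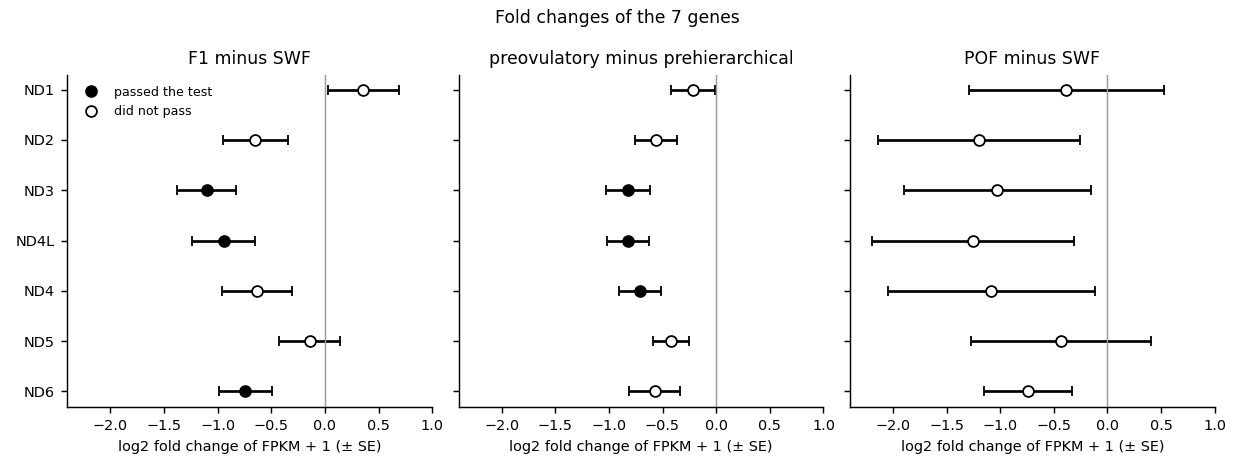
Log2 fold change of FPKM + 1 (horizontal axis, points with ± SE) of the 7 genes (vertical axis) in 3 comparisons, with filled points for genes that passed the test. ND3, ND4L and ND6 passed in F1 minus SWF, ND3, ND4L and ND4 in preovulatory minus prehierarchical, and none in POF minus SWF, where the errors were wider.

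Over the whole classes, preovulatory follicles had lower FPKM of ND3, ND4L and ND4 than prehierarchical follicles. This comparison does not depend on which of LWF and SYF is which. The fit took all libraries of a class as its replicates, so that the spread includes differences between the stages of a class. Whether some of them came from the same hen is not known. Of the 7 genes 0 were called higher and 3 lower, beside 7.45% higher and 25.5% lower of all genes tested. The median log2 fold change of the 7 was -0.57, beside -0.28 over all genes.

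ND4L had a lowest value of 3178, a median of 4571 and a highest value of 5144 FPKM in preovulatory libraries, against 5735, 7044 and 17609 FPKM in prehierarchical libraries. The 15 and 12 libraries did not overlap, and 0.112% of all genes, which is 17 genes, were lower without overlap (log2 fold change -0.82, SE 0.20, adjusted p = 0.0012, limma). ND4 had 3608, 4416 and 5388 FPKM in preovulatory libraries, against 5453, 6779 and 17037 FPKM in prehierarchical libraries, given in the same order of lowest, median and highest. ND4 was thus also without overlap, by a narrow gap (log2 fold change -0.71, SE 0.19, adjusted p = 0.0034, limma). As shares of mitochondrial FPKM without ATP6, both genes overlapped between the classes. ND4L had 3.07% to 5.78% in preovulatory and 4.22% to 5.95% in prehierarchical libraries, and ND4 had 3.58% to 5.57% and 4.41% to 5.76%. ND3 had 1841, 3116 and 5719.9 FPKM in preovulatory libraries, against 3706, 5971 and 10768 FPKM in prehierarchical libraries. Its classes overlapped (log2 fold change -0.83, SE 0.20, adjusted p = 0.0016, limma).

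ND2, ND5 and ND6 had adjusted p-values of 0.018, 0.038 and 0.043 in limma, with log2 fold changes of -0.56, -0.42 and -0.57, which are under the fold needed for a call. ND1 was at -0.22 (SE 0.20, adjusted p = 0.36, limma). ND1 was thus the gene with the smallest difference between the classes.

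Among the libraries of the lower Q30 alone these 3 genes were again called lower, beside 3104 of 15197 genes tested. Their log2 fold changes were -0.60 for ND3, -0.73 for ND4L and -0.72 for ND4. Without LYF replicate 1, 3 of the 7 genes were called lower, beside 4302 of all genes. In the lower-Q30 libraries ND6 was at -0.23 (adjusted p = 0.44, limma), beside -0.57 with all libraries. The mitochondrial fraction moved with the classes. The 13 mitochondrial genes held 20.0% ± 2.06 of all FPKM in preovulatory libraries and 28.4% ± 7.05 in prehierarchical libraries (SD, n = 15 and 12). Scaled to the mitochondrial genes other than ATP6, or to the upper quartile, 0 of the 7 genes were called. Limma then gave 1 of the 7 an unadjusted p under 0.05 under each scaling, beside 7061 and 8447 of 15197 genes. The calls over all genes split into 2202 higher and 1828 lower under the mitochondrial scaling. Under upper quartile scaling they split into 1781 and 2342, beside 1132 and 3874 without these scalings. In these bulk libraries, fewer cells of a type and less mRNA per cell cannot be told apart.

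After ovulation none of the 7 genes was called. The fit ties the spread of a gene to that of genes of like level, so that the SE is not the spread of that gene alone. POF, the follicle after ovulation, was set against F1, the last stage before it. The counts were 0 higher and 0 lower, beside 11.8% higher and 3.88% lower of all genes, and limma gave 0 of the 7 an unadjusted p under 0.05. The POF and F1 libraries overlapped for all 7 genes, while 37.9% of all genes were higher and 8.83% lower in POF without overlap, with a median log2 fold change of -0.31 beside 0.47 over all genes. Single libraries set that background. Over all genes 2388 were called, against 601, 0 and 11 when F1 replicate 1, 2 or 3 was left out, 4716 when POF replicate 3 was, and 0 with the replicate block. At an unadjusted p under 0.05 limma gave 3677 genes when F1 replicate 2 was left out and 4925 with the block. ND1 had 2179, 5116 and 3949 FPKM in POF, against 4753, 5983 and 7269.7 FPKM in F1 (log2 fold change -0.74, SE 2.0, adjusted p = 0.81, limma). ND2 had 1345.5, 3712 and 3741 FPKM in POF, against 3634, 3818 and 4227 FPKM in F1 (log2 fold change -0.55, SE 1.41). POF replicate 1 was the lowest POF library for every gene but ND6, and ND6 had 544, 976 and 543 FPKM in POF, against 923, 538 and 576 FPKM in F1.

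Against SWF, the POF libraries were lower in 5 of the 7 genes without overlap, beside 27.9% of all genes, and 0 were called higher and 0 lower, with 0 at an unadjusted p under 0.05 in limma. The background was 3.83% higher and 12.6% lower, and the median log2 fold change was -1.03 for the 7 genes and -0.11 over all genes. Of all genes 2490 were called, against 243 and 512 when SWF replicate 2 or 3 was left out, 1376 when the first POF replicate was and 4586 when the third was, and 1033 with the replicate block. With no trend of the spread 1 of the 7 was called lower, beside 1685 of all genes. Limma then gave 5 of the 7 an unadjusted p under 0.05, beside 5416 of all genes. ND4L had 2061, 4199 and 2679 FPKM in POF, against 5838, 6902 and 7838 FPKM in SWF. Its log2 fold change was -1.26 with an SE of 0.94 (adjusted p = 0.36, limma). ND2, ND3, ND4 and ND6 were the others without overlap, with log2 fold changes of -1.20, -1.03, -1.08 and -0.74. These comparisons share the SWF and F1 libraries with the one above.

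Within the prehierarchical class, LYF was set against SWF, and the values of LYF turned on 1 library. Of the 7 genes 0 were called higher and 0 lower, and 0 had an unadjusted p under 0.05 in limma, beside 3.76% higher and 23.9% lower of all genes. With all libraries the median log2 fold change of the 7 was 0.34, beside -0.41 over all genes. Without LYF replicate 1 every one of the 7 log2 fold changes was below 0, between -0.41 for ND3 and -0.07 for ND1. The median over all genes was then -0.33, with 724 genes called higher and 2789 lower, so that this count is no result about the ND genes.

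Within the preovulatory class, F1 was set against F5. The test called 0 of the 7 higher and 0 lower, with 0 at an unadjusted p under 0.05 in limma, beside 5.39% higher and 19.4% lower of all genes. ND3 had 3013, 2812 and 2195 FPKM in F1, against 4255, 4532 and 4798 FPKM in F5, without overlap (log2 fold change -0.77, SE 0.34, adjusted p = 0.16, limma). ND4L had 3348, 3427 and 3882 FPKM in F1, against 4571, 4620.4 and 5047 FPKM in F5, also without overlap (log2 fold change -0.42, SE 0.37, adjusted p = 0.45, limma). The median log2 fold change was -0.29 for the 7 genes and -0.24 over all genes. Of all genes 34.3% were lower in F1 without overlap.

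A curve of degree 2 over 8 stages, without LWF and SYF, gave q-values under 0.05 for ND2 (0.045), ND3 (0.027) and ND4L (0.021) in limma. None of the 7 reached the R-squared of 0.7 needed for a call, so that 0 were called beside 11.4% of all genes. The highest R-squared was 0.55, for ND4L. Their q-values were all above 0.05 when libraries were scaled to the upper quartile or to mitochondrial FPKM. A q-value under 0.05 was common, at 66.1% of all genes.

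As a share of mitochondrial FPKM, which does not depend on the scaling between libraries, the 7 genes together held between 14.6% and 28.3% of the 13 genes. POF replicate 3, one of the libraries with high ATP6, had the lowest share. In F1 the share was 21.4%, 22.9% and 24.3%, against 23.98%, 26.5% and 28.1% in SWF, and the libraries overlapped by a small margin. Without ATP6 the shares were 24.7%, 23.3% and 24.7% in F1, against 28.2%, 26.7% and 28.4% in SWF, without overlap. The difference of the means was -3.28 percentage points with ATP6 and -3.53 without it. The F1 library of the lower Q30 had 24.7%, below the lowest SWF library.

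Without ATP6 it was 21.0%, 25.5% and 17.1% in POF, below all 3 SWF libraries and overlapping F1. The mean difference of POF from F1, -2.68 percentage points with ATP6, was 1.61 with only the libraries of the lower Q30, where F1 is 1 library with high ATP6. Without ATP6 it was -3.05 with all libraries and -1.46 with those of the lower Q30. F1, with 24.7%, 23.3% and 24.7%, lay below F5, with 27.1%, 27.3% and 25.6%, without overlap. Over the classes the share without ATP6 was 24.8% ± 2.11 in preovulatory libraries and 26.7% ± 1.80 in prehierarchical libraries (SD, n = 15 and 12), with overlap. Among preovulatory libraries of the lower Q30 the mean was 25.7%. LYF had 28.4%, 27.4% and 28.2%, so that LYF replicate 1, which stood apart in the level of every gene, did not stand apart in the share.

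**Figure D3:**
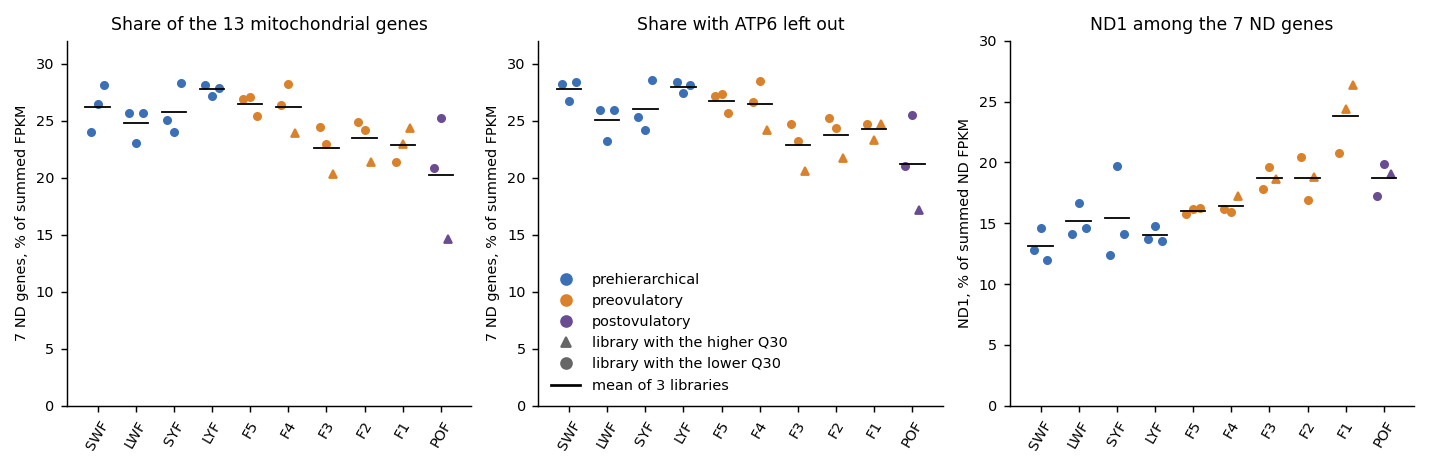
Percent of summed FPKM (vertical axes) in each library by stage: the 7 genes among 13 mitochondrially encoded genes, the same with ATP6 left out, and ND1 among the 7 genes. Triangles mark libraries of the higher Q30, circles those of the lower Q30 and bars the mean of 3 libraries. The F1 libraries had the highest share of ND1, at 20.7% to 26.4% of the 7 genes.

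ND1 made up more of the 7 genes in F1 than at any other stage. ND1 held 20.7%, 24.4% and 26.4% of the summed FPKM of the 7 genes in F1, against 12.8%, 14.6% and 12.003% in SWF. The 3 F1 libraries exceeded all 27 others, the highest of which was at 20.4%. The 20.7% belonged to the F1 library of the lower Q30, and the higher values to F1 libraries of the higher Q30. Whether the Q30 group had a part in the ND1 share was not tested. As a share of mitochondrial FPKM, ND1 in F1 did not exceed all other libraries. Of mitochondrial FPKM without ATP6, ND1 held 5.12% in F1 replicate 1, below F2 replicate 1 at 5.15%. With ATP6 these shares were 4.44% and 5.09%. The stage mean of the ND1 share of the 7 genes was 13.1% in SWF, 15.2% in LWF, 15.4% in SYF and 14.0% in LYF. It was then 16.04% in F5, 16.5% in F4 and 18.7% in both F3 and F2, and it stood at 23.8% in F1 and 18.7% in POF. The ratio of ND1 to ND4 was 1.32, 1.38 and 1.45 in F1, against 0.71, 0.77 and 0.62 in SWF, without overlap. Outside F1 its highest value was 1.22, in POF replicate 2. ND1 was above ND4 in 9 of 15 preovulatory libraries, 1 of 12 prehierarchical libraries and 3 of 3 POF libraries. Within the preovulatory class this was so in 3 of 3 libraries of F1 and of F3, 2 of F5, 1 of F2 and 0 of F4. F1 replicate 1, of the lower Q30, had the lowest ratio in F1 and was still above SWF. These ratios were chosen after their values were seen and were not tested. Relative to the mitochondrial genes other than ATP6, ND1 was at a log2 fold change of 0.66 in F1 minus SWF (adjusted p = 0.11, limma), which did not pass.

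ND3 made up less of the 7 in F1 than in SWF. ND3 held 13.1%, 11.5% and 7.96% of the 7 genes in F1, against 17.0%, 15.9% and 15.4% in SWF, without overlap. The 13.1% belonged to the F1 library of the lower Q30. It lay above LYF replicate 2, at 12.1%, and F4 replicate 2, at 12.7%, both of the lower Q30. Replicate 3 of F4, F3, F2 and POF, all of the higher Q30, had 10.4%, 12.9%, 9.63% and 12.2%. The part of the Q30 group in this share was not tested. The ratio of ND2 to ND5, a pair of antiporter-like subunits, was 0.996, 1.06 and 0.964 in F1, against 1.494, 1.297 and 1.497 in SWF. F1 was thus near parity of ND2 and ND5, while ND2 exceeded ND5 in SWF. Near parity was not particular to F1, as F2 had 1.03, 1.10 and 1.01. Over the classes the ratio overlapped, with 0.81 to 1.54 in preovulatory and 1.05 to 1.52 in prehierarchical libraries.

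ND6 had lower values in the libraries of the higher Q30 within F4 to F1, without a call. This comparison was chosen after the values were seen. Within F4 to F1, with the stage as a term, ND6 had 504, 550.3 and 576 FPKM as lowest, median and highest value in 5 higher-Q30 libraries, against 923, 1049.9 and 1290.5 FPKM in 7 lower-Q30 libraries. These did not overlap, with means of 546 ± 27.6 FPKM in higher-Q30 libraries and 1081 ± 145 FPKM in lower-Q30 libraries (SD). The log2 fold change was -0.95 (SE 0.13, adjusted p = 0.19 over all genes, limma). Of all genes 0.00658% were called higher, which is 1 gene, and 0% lower. Of the 7 genes 0 were called, and 1, ND6, had an unadjusted p under 0.05 in limma (7.5e-05). ND3 also did not overlap, and 0.605% of all genes were lower without overlap (ND3 log2 fold change -0.55, SE 0.29, adjusted p = 0.46, limma). ND4L overlapped between these groups (log2 fold change -0.21, adjusted p = 0.78, limma).

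Within each library, the ratio of ND6 to ND5 was 0.131 to 0.192 in the 6 higher-Q30 libraries and 0.203 to 0.531 in the 24 others. The ratio of ND4L to ND4 was 0.769 to 0.892 in higher-Q30 libraries and 0.916 to 1.11 in the others. These were the 2 ratios without overlap among 9 computed. The higher-Q30 libraries were also the deeper ones by the relative depth, at 1.25 to 1.54, against 1 to 1.23 in the others. That depth was read from few genes at the common step, 16 to 27 in the higher-Q30 libraries and 12 in F2 replicate 1. The part of sequencing or depth in these ratios was not tested, and how the counting divided reads between ND4L and the overlapping ND4 is uncertain.

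**Figure D4:**
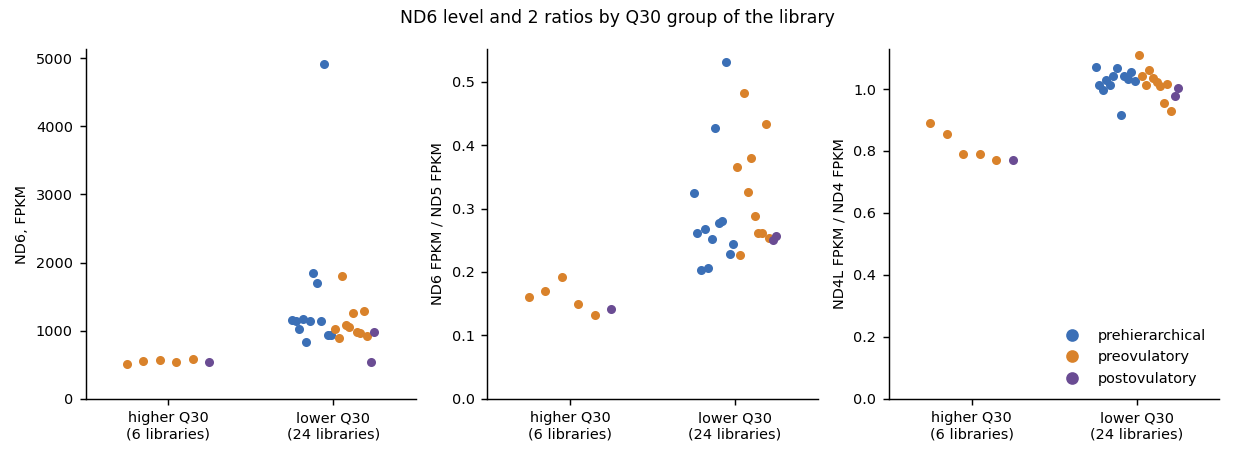
ND6 FPKM, the ratio of ND6 to ND5 and the ratio of ND4L to ND4 (vertical axes) in 6 libraries of the higher Q30 (left) and 24 libraries of the lower Q30 (right), coloured by class, each point a library. The ratios did not overlap between the Q30 groups, and ND6 overlapped by POF replicate 1 at 544 FPKM.

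The 7 genes varied together across libraries, and ND4L, ND4 and CYTB most closely. Over 30 libraries the Pearson correlation of log2(FPKM + 1) between pairs ran between 0.55 and 0.97 with a median of 0.80 over 21 pairs, against 0.35 to 0.96 with a median of 0.71 without LYF replicate 1. Without LYF replicate 1 and POF replicate 1 the lowest was 0.24. The values share a library, its depth and its total, so these correlations are descriptions. ND4L and ND4 were at 0.97, and ND4 was most like CYTB, the mitochondrially encoded subunit of complex III, at 0.98. ND1 was most like ND5, at 0.89, and ND3 was most like ND4L, at 0.90. As shares of mitochondrial FPKM without ATP6, ND4L and ND4 were at 0.91, while ND1 was at -0.39 with ND3 and 0.54 with ND5. Of the 21 pairs, 8 had a correlation of shares below 0. Shares of the same sum cannot all rise together, so that this count is a description. Outside the mitochondrial genes, the gene most like ND4L was ENSGALG00000037369, at 0.87, for which no symbol is paired.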

How the data were processed

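RNA-seq of granulosa layers was made from strand-specific, rRNA-depleted libraries. The authors trimmed and filtered the reads, aligned them with HISAT2 2.1.0 (build GRCg6a) and deposited the FPKM that StringTie 1.3.3 gave. Summed FPKM ran from 471009 to 642207 per library, and no other scaling was added. The study names a count test. Counts were not analysed here, and FPKM were tested in its place with limma 3.58.1 in R 4.3.3.

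The tests took genes over 0.5 FPKM in 2 or more libraries of any stage (15197 of 23910, all 7 ND genes included). Values were log2(FPKM + 1) with a pseudocount of 1, so that fold changes are on that scale. Pairs of stages used their 6 libraries and the classes 27, with a trend of spread on level and Benjamini-Hochberg adjustment over all genes kept. Calls needed an adjusted p under 0.05 and a fold over 1.5. The course used a polynomial of degree 2 over 24 libraries. Q30 groups come from the study's sequencing statistics. A relative depth was read from the smallest common step of FPKM at or under 0.2. The tests were checked on simulated data. Tables and plots used Python 3.11.15, pandas 2.3.3, numpy 2.4.6 and matplotlib 3.10.9.

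The genes and lists were chosen with earlier results of these data known. Genes named are the 7 ND genes, other mitochondrial genes where a share or ratio turns on them, and for each ND gene the most correlated genes, of which some are quoted. Lists of nuclear complex I subunits (38 genes), assembly factors (14), mitochondrial RNA (24) and markers of granulosa (8), theca and stroma (9), endothelium (4), leukocytes (5) and red blood cells (4) had 0 genes paired with an identifier and are void. Same-numbered libraries of compared stages had correlations of deviations between -0.19 and 0.16, and in no comparison were all 3 over 0.1 (0.07 to 0.16 in LYF with SWF), so no block was used in the tests reported. Alternatives were other scalings, filters, pseudocounts, fits and left-out libraries.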

Additional observations from a re-analysis of the deposited data

How the results depend on the processing

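Alternatives were 16 per gene for F1 with SWF and 14 for the classes. In F1 minus SWF the count of 3 genes called became 0 with no filter on low FPKM, 0 when scaled to the 13 mitochondrial genes, 0 when scaled to those other than ATP6, 0 with all 30 libraries in the fit, 0 with a term for the higher Q30, 1 with upper quartile scaling, 4 with quantile normalization and 5 with no trend of the spread. Over all genes the calls were 7889 of 19162 tested with no filter, 6858 when scaled to the 13 mitochondrial genes and 6386 without ATP6. They were 7700 with all 30 libraries, 6238 with upper quartile scaling, 5960 with quantile normalization and 8028 with no trend, beside 8040 in the main fit. Leaving out 1 replicate gave 0 to 2 calls, beside 6739 to 7930 of all genes. ND3, ND4L and ND6 kept their sign in all 16 alternatives, with adjusted p (limma) between 0.0026 and 0.31, 0.0036 and 0.60, and 0.0042 and 0.97. In preovulatory minus prehierarchical the count of 3 became 0 with upper quartile scaling, 0 when scaled to the 13 mitochondrial genes and 0 when scaled to those other than ATP6, 2 with no filter on low FPKM, 4 with quantile normalization and 4 without LWF and SYF. Over all genes the calls were 4123 with upper quartile scaling, 4048 when scaled to the 13 mitochondrial genes and 4030 without ATP6. They were 4945 of 20566 tested with no filter, 3940 with quantile normalization and 4113 without LWF and SYF, beside 5006 in the main fit. ND3, ND4L and ND4 kept their sign in all 14. POF minus SWF gave 1 call with no trend of the spread and 1 with all 30 libraries in the fit, beside 2253 and 6640 of all genes. F1 minus F5 gave 1 with no trend, beside 3830 of all genes. The cause of these changes was not tested.

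These log2 fold changes turned their sign. With upper quartile scaling, ND2, ND4 and ND5 were at 0.080, 0.097 and 0.58 in F1 minus SWF, ND3 and ND6 at -0.36 and -0.43 in POF minus F1, ND2 and ND4 at 0.086 and 0.31 in F1 minus F5, and ND1 at 0.10 in the classes. When scaled to the 13 mitochondrial genes, ND5 was at 0.16 in F1 minus SWF, ND1 and ND5 at 0.11 and 0.059 in POF minus SWF, ND3 at -0.17 in LYF minus SWF, and ND1 and ND5 at 0.27 and 0.064 in the classes. When scaled to those other than ATP6, a choice made after seeing the data, the values were 0.16 for ND5 in F1 minus SWF, 0.10 for ND1 and 0.056 for ND5 in POF minus SWF, -0.032 for ND2 and -0.25 for ND3 in LYF minus SWF, and 0.27 for ND1 and 0.061 for ND5 in the classes. Quantile normalization gave 0.027 for ND4L in POF minus F1 and 0.041 for ND4 in F1 minus F5. In LYF minus SWF it gave -0.35, -0.12, -0.58, -0.11, -0.22, -0.52 and -0.26 for ND1, ND2, ND3, ND4L, ND4, ND5 and ND6. With a term for the higher Q30, ND3 and ND6 were at -0.0069 and -0.19 in POF minus F1.

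Leaving out 1 replicate gave ranges across 0 of -0.15 to 0.23 for ND3 and -0.28 to 0.25 for ND6 in POF minus F1, and of -0.18 to 0.055 for ND4 in F1 minus F5. In LYF minus SWF the ranges were -0.065 to 0.64 for ND1, -0.16 to 0.50 for ND2, -0.41 to 0.36 for ND3, -0.15 to 0.62 for ND4L, -0.17 to 0.60 for ND4, -0.11 to 0.53 for ND5 and -0.24 to 0.96 for ND6, with the lowest value always without LYF replicate 1.

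Between the Q30 groups within F4 to F1, a comparison added after seeing the data, ND6 stayed between -1.03 and -0.85. Its alternatives turned other genes: ND1, ND2 and ND5 were at 0.058, 0.082 and 0.022 with upper quartile scaling, 0.13, 0.10 and 0.038 with quantile normalization, and 0.012, 0.13 and 0.018 with the POF libraries. ND4 was at -0.011 without F4 and -0.058 without F1, ND1 and ND2 were at 0.072 and 0.0087 without F3, and 0.062 and 0.056 without F2.

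The difference in the share of mitochondrial FPKM was 1.61 percentage points for POF minus F1 and -5.05 for F1 minus F5 with only the libraries of the lower Q30, where F1 is 1 library with high ATP6, and -1.46 and -2.01 without ATP6. Without 1 replicate it lay between -5.18 and 0.12 for POF minus F1.

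The labels link same-numbered libraries by nothing but the number, and whether they shared a hen is not known. With the replicate block 3 ND genes were called in F1 minus SWF and 3 in the classes, as without it, beside 7821 and 5002 of all genes. In the other pairs of stages 0 ND genes were called, as without the block. Calls over all genes in POF minus F1 were 0 with the block, against 2388 without it. They were 1033 in POF minus SWF, 3801 in LYF minus SWF and 1873 in F1 minus F5 with the block. Leaving out 1 library gave 1610 to 3688 calls over all genes in LYF minus SWF, against 4211, and 1778 to 3919 in F1 minus F5, against 3773. Every library of LYF and SWF correlated best with its own number (3 of 3 pairs). Depth was used here only as a ratio between libraries, and no counting error is given. The SE in POF minus F1 reached 2.0 on the log2 scale. It is not the spread of a gene alone, as the fit ties that spread to genes of like level. With no trend of the spread, 1 ND gene was called lower in POF minus SWF, beside 1685 of all genes. In POF minus F1 0 ND genes were then called, beside 2615 of all genes. Differences of the ND genes after ovulation were not resolved in the main fits, which had 3 libraries a stage. The reason was not tested.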
